A study of Mus musculus with 45 samples.

Results

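Transcripts that join splice sites already in the annotation in an arrangement no annotated transcript has were described in long-read libraries of mouse cells on the way from neural progenitors to induced pluripotent stem cells. The members were the 44101 transcripts of the deposited transcript table that the authors' classification table places in the structural category novel_in_catalog, out of 276608 transcripts (15.9%). They lie in 8909 of 23575 genes. The category was assigned from exon structure alone, without any expression value. Membership also required passing the authors' filter, which kept 18.7% of the 236364 transcripts of this category. No member was above 0 in only 1 library. They were set beside 56793 full-splice matches, which repeat an annotated intron chain, 40958 incomplete splice matches, which carry part of one, and 123606 transcripts with a splice site outside the annotation (novel_not_in_catalog).

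The study followed reprogramming, the return of a committed cell to pluripotency by forced transcription factors, with Oxford Nanopore reads that span whole transcripts. Of the 45 libraries, 22, called R9 here, were made by direct cDNA sequencing after poly(A) enrichment, and 23, called R10, were amplified by PCR from total RNA. All cells descend from the R1 embryonic stem cell line or from its Oct4-GFP reporter derivative O4G. Neural progenitors in their own medium were wild type or carried an inducible OKMS-Luciferase-AS or OKS-Luciferase-AS construct. R9 and R10 each held 4 progenitor libraries, namely 2 of wild type, 1 of OKMS and 1 of OKS. Embryonic stem cells were grown in 2i-LIF. They are represented by 2 R9 libraries (O4G and R1) and 7 R10 libraries (2 of O4G, 2 of R1-Clone3 and 3 of R1). For induction, OKMS and OKS progenitors received doxycycline in FBS-LIF. R9 sampled each system once on days 2, 4, 6, 10, 14 and 20. R10 sampled both on days 2, 6 and 18 and OKMS also on days 4 and 10. Some induced cells were transferred into 2i-LIF, with 3 R9 libraries (days 14 and 20) and 2 R10 libraries (day 18). As a control without inducible factors, wild-type progenitors spent 2 days in the same doxycycline medium (1 R9 and 2 R10 libraries). In bulk samples, fewer cells of a type and less RNA per cell cannot be told apart.

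A gene's primary transcript can be cut and joined in several ways. An exon can be skipped, an intron can be kept, or the splicing machinery can use a neighbouring donor (the start of an intron) or acceptor (its end). A retained intron or a frameshift often brings an early stop codon, which marks an RNA for nonsense-mediated decay. Splicing programs differ between neural cells and pluripotent cells, and RNA-binding proteins such as Rbfox2 and Ptbp1 set part of that difference.

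Junctions of the members on which the results below turn show how small or large the new arrangement can be. Each line holds the last 15 bases of the upstream exon in lower case and the first 15 of the downstream exon in CAPITALS, 5′ to 3′ on the gene's strand, read from GENCODE M21 transcripts (GRCm38). "New" is the member's junction and "annotated" that of the closest annotated transcript.
Uchl1 new: gagattaaccccgagGTGTTGGCCAAGCTG
Uchl1 annotated, into the skipped exon: gagattaaccccgagATGCTGAACAAAGTG
Cct8 new: cagtatcagaggcaaGTAATATCGGGGTAT
Cct8 annotated: ctgtcagtatcagagGTAATATCGGGGTAT
Lcmt1 new: gcttcaaatgggcaaATAGTCACATGCTGG
Lcmt1 annotated: acacgcttcaaatggATAGTCACATGCTGG
Cnot10 new: atgagcaggaccaagCTGGCAAGCGCGCCC
Cnot10 annotated, into the skipped exon: atgagcaggaccaagGATCAGACAAGGGTG
Hnrnpm new: gaaggaaagtcaaggGCCACGTGCTGTACG
Idh2 new: agccgcggcgccactTGTGAAGCTGAACGA

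The Uchl1 intron (chr5:66676323-66676943, + strand) leaves out a coding exon of 12 bases, and the capitals of its annotated line therefore run on into the following exon. Both the Cct8 intron (chr16:87490666-87491297, − strand) and the Lcmt1 intron (chr7:123404489-123410723, + strand) start 4 bases downstream of the annotated donor, so the upstream exon ends with the extra bases gcaa. The Cnot10 intron (chr9:114597607-114598704, − strand) skips a coding exon of 36 bases. The Hnrnpm intron (chr17:33646660-33670080, − strand) passes over 13 annotated exons and the Idh2 intron (chr7:80095204-80115161, − strand) spans 19958 bases.

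The members fall into 3 kinds, and the largest is not a new combination of splice sites in the narrow sense. Retained introns made up 18757 members (42.5%), known splice sites joined in a new pair made up 12782 (29.0%), and known introns in a new combination made up 12562 (28.5%). When the exon chains were set against GENCODE M21, only 1 member had an annotated intron chain, 99.8% used annotated splice sites throughout, and 68.1% used annotated introns throughout. Against the most abundant full-splice match of the same gene, which 40264 members had, an intron was retained in 34.8%, an exon was skipped in 34.0%, a site was shifted in 24.3%, an end exon differed in 22.7% and an exon was added in 8.59%.

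Most members were predicted to code. An open reading frame was called in 90.8% of them, against 85.3% of full-splice matches, 81.4% of incomplete splice matches and 84.98% of transcripts with a new splice site. Of the coding members, 24.7% were predicted targets of nonsense-mediated decay, against 2.34% of coding full-splice matches. Among coding transcripts with a new splice site it was 27.5%, and among coding incomplete splice matches 2.20%. A high predicted share was therefore not particular to the members. Within the coding members it was 44.3% for those with a retained intron, 11.7% for new splice-site pairs and 8.81% for new combinations of known introns. The median member had 8 exons and 2107 bases, and 88.0% started within a CAGE peak, a mapped transcription start.

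Members were numerous but low. They held 2.93% of the TPM summed over all 45 libraries, where TPM is a transcript's share of its library on a fixed scale. The median highest TPM of a member in any library was 2.07, the median member was above 0 in 9 libraries, and 122 members were above 0 in all 45. The 1373 most abundant members carried 50% of the members' TPM. Of the genes with members, 2348 had 1 and 1196 had at least 10. Nop56, which encodes a core protein of box C/D small nucleolar ribonucleoproteins, had the most with 88.

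An intron absent from GENCODE M21 was present in 14059 members, which held 37.5% of the members' TPM. An exon was skipped in 12856 of these members (32.6% of the members' TPM), in 10361 cases a single one, with a median of 123 bases left out. The skipped bases were a multiple of 3 in 5412 members. Donors were shifted in 711 members and acceptors in 569. Some very small changes were abundant. The 217 members that skip at most 15 bases held 3.34% of the members' TPM. The 111 members whose donor lies 4 bases downstream of the annotated one held 1.87%. Much of the first total came from Uchl1 and much of the second from Cct8 and Lcmt1. Among those 111, the 4 bases were gcaa in 76 and gcag in 29, so the annotated intron opens with the less common dinucleotide gc. A donor 4 bases upstream occurred in 7 members. Of the 10 members of highest mean TPM with an intron absent from GENCODE M21, 6 differ by an exon of at most 15 bases or a site shifted by at most 4: Uchl1 (mean 414 TPM over 45 libraries), Cct8 (255), Lcmt1 (167), Krtcap2 (128), Fam92a (68.0) and Sept7 (62.8). Shifts were counted from the nearest annotated intron, 3 bases for Krtcap2, whereas its donor lies 78 bases from that of its closest annotated transcript. The deposited files hold no read alignments, so the reads behind these small differences were not tested.

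**Figure D1:**
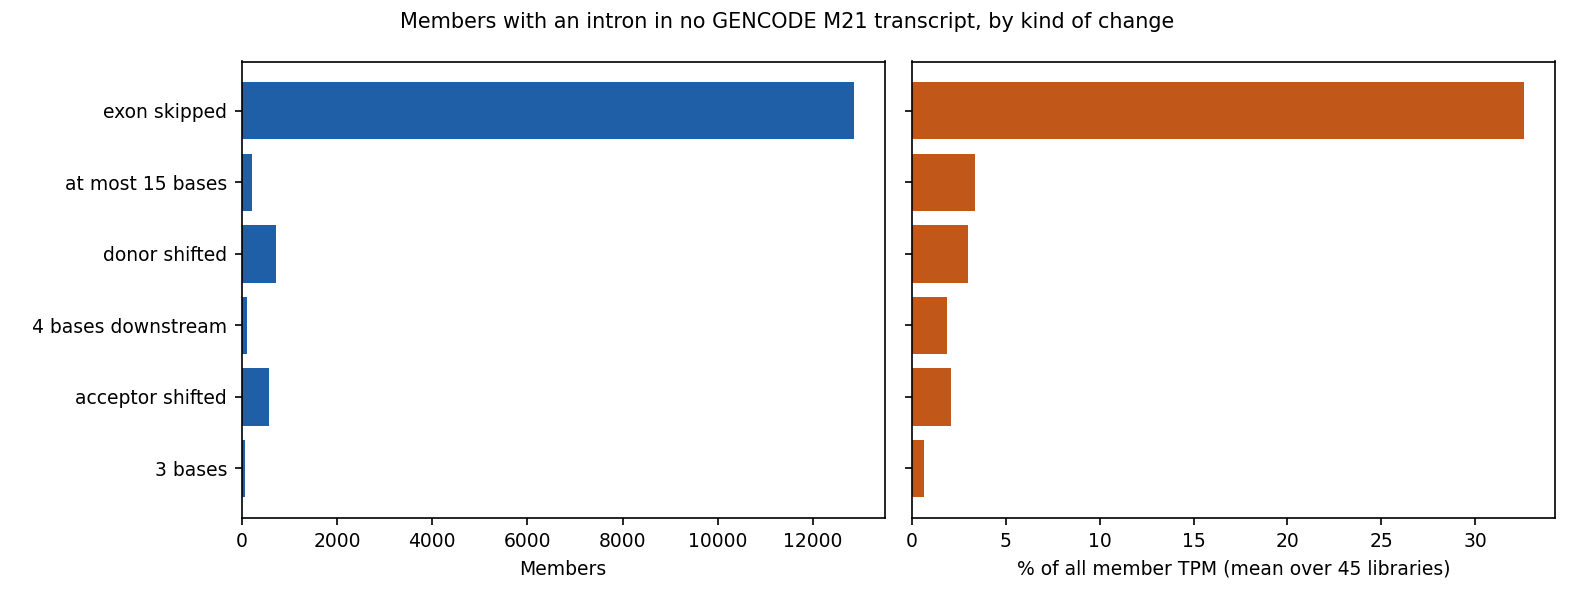
Members with an intron in no GENCODE M21 transcript, by kind of change: bars give the number of members in the left panel and their percent of the TPM of all members in the right panel, each from 0. Skipped exons account for 12856 members, while the 111 members with a donor 4 bases downstream are few and hold 1.87% of the members' TPM.

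Some facts of the libraries touch every comparison below. Depth, recovered from the gene table as whole reads, ran from 447990 to 1390424 in R9 and from 566599 to 4236442 in R10. In R10, 10 libraries stood apart: the 6 stem cell libraries with an n number and the 4 of day 18. Incomplete splice matches took 14.6% to 20.3% of their TPM against 7.84% to 12.9% in the other 13, and mitochondrial genes 1.56% to 2.35% of their reads against 0.124% to 1.64%. No progenitor library was among those 10, and the R1 library without an n number was the only stem cell library outside them. For the numbered libraries, cell type and library set cannot be told apart, so the R1 library without an n number, called the unnumbered R1 library below, is given beside most R10 results on single members. Pluripotency genes summed to 12307 to 14939 CPM (reads scaled to a common library total) in R10 stem cells and 59.7 to 71.9 in R10 progenitors. Neural progenitor markers summed to 178 to 380 in stem cells and 6092 to 7415 in progenitors, with Nes at 281 to 384 CPM. Sox1, an early neural marker, was listed at 0 in all 8 progenitor libraries. Mesenchymal genes also ran higher in R10 progenitors (332 to 487 CPM summed) than in stem cells (20.0 to 31.8), and epithelial genes lower (0 to 8.18 against 119.5 to 326), and the part of these markers in the results was not tested.

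Many members were listed at exactly 0 in some libraries, and detection was compared between the library kinds. For 8 pairs of an R9 and an R10 library of the same condition, 90.1% to 98.1% of the members with at least 20 TPM in the R9 library were above 0 in the R10 library. Over the other R10 libraries that share went down to 61.6%, with medians between 81.8% and 93.8%. Between 0 and 6 of the 22 other libraries were as high as the matching one, 6 for OKMS cells at day 6 and 5 each for OKMS cells at day 4 and OKS progenitors. Full-splice matches gave 94.8% to 98.5% for the same pairs and at least 81.4% elsewhere. Whether the authors quantified libraries in sets is not given in the sources used here, so a member is called listed at 0 below.

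As a whole, the members' share of the transcript pool differed little between conditions. It was 2.51% ± 0.171 of TPM in R10 stem cells (SD, n = 7) and 2.75% ± 0.162 in R10 progenitors (n = 4). The exact permutation test over libraries gave a two-sided p of 0.0364, and 0.164 after Benjamini-Hochberg adjustment over 9 such tests. The R1 library without an n number was at 2.75%, within the progenitor range of 2.62% to 2.98%. The R10 difference was smaller when incomplete splice matches were left out of the total (last section). In R9 the shares were 2.86% (n = 2) and 2.99% ± 0.157 (n = 4), with an exact permutation p of 0.333. With only 15 ways to split these R9 libraries, a test of this kind cannot give a p under 0.05. Along the R9 time course, days 10 to 20 gave 3.10% ± 0.264 and days 2 to 6 gave 3.11% ± 0.237 (n = 6 each, exact permutation p = 0.937).

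Coding members carried most of that pool. They took 77.5% ± 1.35 of the members' TPM in R10 stem cells and 76.2% ± 1.23 in R10 progenitors (exact permutation p = 0.136, n = 7 and 4), with the unnumbered R1 library at 75.3%. In R9 the shares were 77.8% and 74.8% (exact permutation p = 0.200, n = 2 and 4), and late and early days gave 78.8% and 78.1% (exact permutation p = 0.465, n = 6 each). None of these differences passed the test, though the R10 one did so unadjusted when members that retain an intron were left out (last section). A wild-type R10 library of day 2 in FBS-LIF with doxycycline had the highest member share of all 45 libraries, at 3.98%, with 1.86% of its TPM in members with a retained intron. The other R10 library of that condition had 2.68% and 0.656%, and the R9 library 3.31% and 1.03%.

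**Figure D2:**
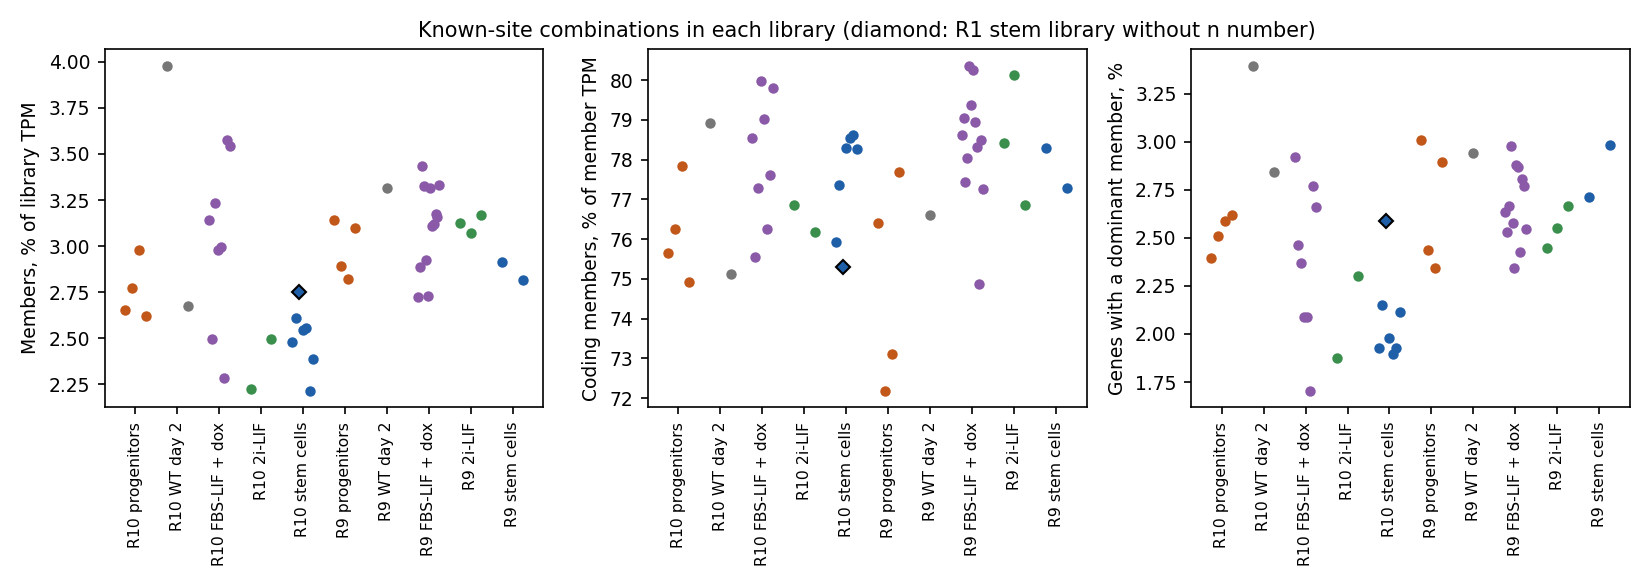
Members' percent of TPM, coding percent of the members' TPM and percent of genes with a dominant member in 3 panels, 1 point per library, by group and library kind, with the R1 stem cell library without an n number drawn as a diamond. In R10, the diamond lies at 2.75% of TPM and 2.59% of genes, with the progenitors rather than with the numbered stem cell libraries.

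In a small set of genes, a member was the most abundant transcript. Among genes with a mean of at least 20 TPM, this held for 93 of 4614 genes in R10 stem cells (2.02%) and for 125 of 4805 in R10 progenitors (2.60%). In R9 it held for 140 of 5001 and 128 of 5145. Of the 3555 genes above that level in both R10 arms, 54 had a dominant member in both (in 50 the same one), 11 only in stem cells and 24 only in progenitors, counts without a test. The same member was dominant in both arms of both library kinds for 30 genes. Per library, 2.08% ± 0.244 of genes in R10 stem cells (n = 7) and 2.53% ± 0.0997 in progenitors (n = 4) had a dominant member (exact permutation p = 0.0152, adjusted p = 0.136). The R1 library without an n number, at 2.59%, lay among the progenitors (2.39% to 2.62%). In R9 the order was the other way, with 2.85% and 2.67% (exact permutation p = 0.533, n = 2 and 4). That R9 order turned at a gene minimum of 50 TPM (last section).

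The dominant members were mostly coding, which means only that an open reading frame was called. The 4 extra bases of the Cct8 and Lcmt1 members lie within annotated coding sequence and are no multiple of 3. Their predicted frames have 380 and 176 residues. In R10 stem cells 74 of the 93 dominant members were coding, 2 of them predicted decay targets, and in progenitors 94 of 125, with 8. New combinations of known introns led (54 and 63), followed by new splice-site pairs (26 and 38) and retained introns (13 and 24). Dominance often fell short of a majority: the median share of the gene's TPM was 37.2% in stem cells and 37.9% in progenitors, and 30 and 40 of these members reached 50%. Shares are taken over the transcripts that the authors kept, and 10 of the 93 and 13 of the 125 genes had no full-splice match in the table, Uchl1 and Cct8 among them. These are 10.8% and 10.4%, against 8.41% of all genes of that level in both arms, and 8 of the 10 and 9 of the 13 had one in the unfiltered table. Full-splice matches held a median of 9.31% and 12.2% of the TPM of the 93 and 125 genes. Over all genes of that level the medians were 53.4% and 59.1%, though a dominant member by itself lowers this share. Among genes named below, Gon4l and Spc24 had no full-splice match either. In R10 progenitors and stem cells full-splice matches held 0.0528% and 0.0459% of Lcmt1, but 96.5% and 43.8% of Gemin7. Across all genes of that level, the members summed to a median of 0.996% of the gene's TPM in stem cells and 1.34% in progenitors.

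Several of the most abundant dominant members held most of their gene in both groups, whereas those of Gm46332 and Krtcap2 did so in 1 group (below). The 8-exon member of Uchl1, a ubiquitin hydrolase abundant in neurons, took 93.3%, 90.8%, 96.0% and 96.6% of the gene's TPM in the R10 progenitors and between 90.2% and 96.6% in the stem cells (median 92.1%, the unnumbered R1 library at 90.2%). Its groups overlapped and the share did not pass the test (difference −1.87 points, adjusted p = 0.390). Along the R9 course of OKMS and OKS cells in FBS-LIF, day 0 included, it lay between 78.5% and 95.1%. The 3-exon member of Hotairm1, a noncoding RNA of the HoxA cluster, held 82.5% to 84.7% of its gene in R10 progenitors and 67.9% to 93.4% in stem cells (72.5% in the unnumbered R1 library), while its level changed greatly (below). The 5-exon member of Mrpl20, a mitochondrial ribosomal protein gene, held 79.9% to 83.0% in progenitors and 65.8% to 76.5% in stem cells (76.4% in the unnumbered R1 library), a difference of −9.66 points that stayed under the 10 points required for a call. The member of Esd, the esterase D gene, held 66.0% to 71.8% and 68.4% to 74.6%, the lowest stem cell value being the unnumbered R1 library.

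Other dominant members lost share in stem cells without losing dominance. Lcmt1, which encodes the methyltransferase of the catalytic subunit of protein phosphatase PP2A, gave its member 87.7%, 93.5%, 91.5% and 89.8% in the R10 progenitors and 70.8% to 80.4% in the stem cells (median 78.3%), where the unnumbered R1 library was the lowest. The groups did not overlap, and the share fell by 13.4 points (SE 2.04, limma adjusted p = 8.18e-04). In the R9 libraries the same member held 83.0% in progenitors and 70.4% in stem cells (adjusted p = 0.617). Nfu1, an iron-sulfur cluster scaffold, behaved alike in R10, at 81.0% to 86.6% in progenitors and 66.7% to 73.8% in stem cells, the unnumbered R1 library highest (−13.4 points, adjusted p = 3.74e-04). Cct8, a subunit of the TRiC chaperonin, fell from 76.2% ± 5.44 to 56.7% ± 10.1 (adjusted p = 0.0106), but the unnumbered R1 library was at 77.8%, inside the progenitor range, and the R9 means were 45.5% and 40.6%.

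**Figure D3:**
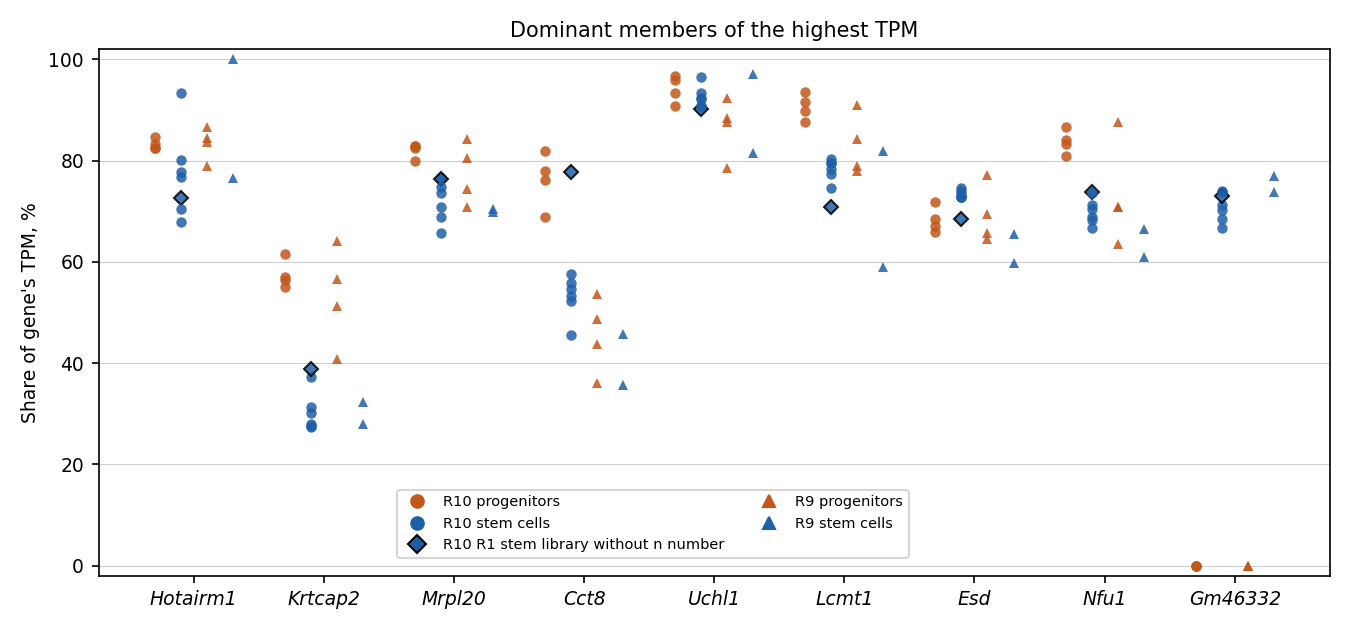
Share of the gene's TPM, in percent, held by the dominant members of highest TPM, 1 point per library (R10 circles, R9 triangles), with progenitors and stem cells in separate colours. In R10, Uchl1 is above 90% in both groups, while Gm46332 is at 0 in the progenitors with a value and between 66.6% and 74.0% in the stem cells.

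Stem cells and progenitors were then compared for usage, the percent of its gene's TPM that a transcript takes, in genes expressed in both arms. A call required an adjusted p under 0.05 over all transcripts tested and a difference of at least 10 points. In R10, 88 of the 536 members tested were called (16.4%), 40 that gained and 48 that lost share in stem cells, in 76 genes. Across all 11025 transcripts tested 26.6% were called, 14.0% higher and 12.6% lower, so members were called at a lower rate than the table as a whole. The groups did not overlap for 105 of the 536 members (19.6%), against 19.8% of all transcripts. Only 536 of the 44101 members passed the filter on share and gene level. The filter on share used the mean over both arms, so a member under 5% in 1 arm passed only through the arm where it was high and had to differ. For such members named below the values are a description, with no p. The median difference was −0.12 points for members and 0.44 for all.

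The R1 library without an n number lay beyond the progenitor range in the called direction for 34 of the 40 members that gained and for 31 of the 48 that lost. Over all called transcripts these counts were 771 of 1546 and 833 of 1386. With that library alone as the stem cell arm, 8 members were called, 6 of them among the 88 (Prrc1, Coil, Blvra, Mrpl33, Nutf2 and Cnot10, named after their values were seen). That library is also 1 of the 7 behind the 88 calls, and only the progenitors then give a spread, so this is no independent support. Of the called members also tested in R9, 16 of 19 gains and 29 of 40 losses had the same sign there (84.2% and 72.5%), beside 541 of 1031 gains (52.5%) and 770 of 1130 losses (68.1%) over all called transcripts. A member at 0 in 1 arm can differ in 1 direction only, and such members are counted in these shares. In R9 itself 4 of 624 members were called, beside 0.856% of all transcripts, 0.497% higher and 0.359% lower (limma, with 65 members at an unadjusted p under 0.05): Prrc1, Blvra, Keap1 and Wars, all gains, of which 3 were also called in R10. The first 3 of these were at 0 in R9 progenitors and passed the filter only through the stem cells. The member of Blvra, biliverdin reductase A, was at 0 in all 8 progenitor libraries, at 35.0% and 37.0% in R9 stem cells and at 6.40% to 36.1% in R10 stem cells. That of Keap1, which targets the stress factor Nrf2 for degradation, was at 0 in R9 progenitors and at 25.9% and 28.3% in stem cells, with 0 to 11.1% in R10 stem cells. That of Wars, the tryptophanyl-tRNA synthetase, held 3.55% to 18.1% and 43.3% to 47.5% in R9. Without the R9 library of R1 stem cells limma called 0 members, with 42 at an unadjusted p under 0.05.

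The largest gain was in Mrpl33, which encodes a protein of the large mitochondrial ribosomal subunit. Its 3-exon, 464-base member (chr5:31613932-31622642) lacks an annotated exon of 19 bases and was classed as non-coding. It took 10.3%, 13.6%, 12.4% and 18.8% of the gene's TPM in the R10 progenitors, and 42.5% to 69.0% in the stem cells (median 58.1%), with the R1 library without an n number at 59.4%. The groups did not overlap, and the difference was 41.9 points (SE 4.29, limma adjusted p = 6.38e-05). In R9 the 4 progenitor libraries gave 9.55% to 19.1% and the stem cells 33.7% and 34.2% (adjusted p = 0.102). The gene was at 130 TPM in progenitors and 123 in stem cells of R10, and at 158 and 227 TPM in R9.

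Several gains started from a member listed at 0 in progenitors. The 5-exon member of Prrc1 was at 0 in all 8 progenitor libraries, at 26.0% to 46.8% in R10 stem cells (the unnumbered R1 library highest) and at 47.8% and 43.8% in R9 stem cells. The means differed by 31.4 points in R10 and 45.8 points in R9. The 2-exon member of Coil, which retains a 145-base intron of the gene for coilin, the scaffold of Cajal bodies, was at 0 in the same 8 libraries. It held 21.4% to 29.0% in R10 stem cells (26.9% in the unnumbered R1 library) and 24.4% and 23.7% in R9 stem cells (a difference of 25.8 points in R10). Both genes were also more abundant in stem cells, with Prrc1 at 392 against 39.1 TPM and Coil at 255 against 20.9. The member of Vgll4, a cofactor of TEAD transcription factors, was at 0 in all progenitors too and at 13.1% to 44.8% in R10 stem cells, the unnumbered R1 library lowest. In R9 it reached 23.7% in O4G and was listed at 0 in R1. The gene was at only 5.71 to 7.02 TPM in these R9 stem cells and the member at most at 1.66 TPM, so these shares are near the floor. Unlike the other genes, Vgll4 was lower in R10 stem cells (23.6 TPM) than in R10 progenitors (91.2 TPM).

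Other members were already detectable in some progenitor libraries. Gemin7, part of the SMN complex that assembles spliceosomal ribonucleoproteins, gave its 2-exon, 800-base member 0%, 0.603%, 0.905% and 0.881% in the R10 progenitors and 19.4% to 37.1% in the stem cells, the unnumbered R1 library lowest (30.6 points). The main annotated form held 68.4% and 28.4% as group means, and the gene 278 and 134 TPM. In R9 the member held 0.518% and 18.9%. Cnot10, of the CCR4-NOT deadenylase, gave its member that skips the 36-base exon 1.25% to 4.59% in progenitors and 24.5% to 41.9% in stem cells, the unnumbered R1 library lowest (30.1 points), at a gene TPM of 29.5 and 30.4. In R9 it held 1.49% and 20.2%. The member of Capns1, the small calpain subunit, with a 977-base intron retained, went from at most 0.864% to 13.5% to 27.4%, the unnumbered R1 library lowest, but reached only 9.20% and 4.67% in the R9 stem cells. For 2310061I04Rik the gain of 24.8 points (adjusted p = 0.00635) rested on the numbered libraries: the unnumbered R1 library was at 8.08%, within the progenitor range of 2.32% to 8.22%, and the R9 means were 9.25% and 9.26%. This call was lost with wild-type progenitors alone and without a minimum share.

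The largest loss was in Smg6. This gene encodes an endonuclease of nonsense-mediated decay. Its 7-exon, 2834-base member (chr11:75132312-75164448) held 25.3%, 28.8%, 30.1% and 38.0% in the R10 progenitors and 12.2%, 45.3%, 42.4% and 26.6% in the R9 progenitors, and was listed at 0 in all 9 stem cell libraries. The R10 difference was −30.6 points. The member passed the filter only through the progenitors, so no p is given. Krtcap2, a subunit of the oligosaccharyltransferase, lost share in both kinds of library: its 5-exon, 640-base member held 54.9% to 61.6% in R10 progenitors and 27.4% to 38.8% in stem cells, the unnumbered R1 library highest (−26.0 points, adjusted p = 4.75e-05), and 40.8% to 64.1% against 27.9% and 32.3% in R9 (adjusted p = 0.253). The groups overlapped in neither kind. The member of Aaas, a nuclear pore protein gene, with a 2861-base intron retained, fell from 32.0% to 61.8% in R10 progenitors to 7.23% to 33.5% (adjusted p = 0.00311), and was at 7.96% to 38.5% against 3.09% and 3.45% in R9. Its R10 groups overlapped, with the R1 library without an n number at 33.5%.

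The other losses among the 8 largest differed more between the library kinds or within the stem cell group. The member of Oaz1, the antizyme of ornithine decarboxylase, held 49.96% to 59.4% in R10 progenitors and 24.5% to 36.1% in stem cells, the unnumbered R1 library highest (−25.3 points, adjusted p = 7.21e-05), yet 23.4% and 25.2% as R9 means. Fcf1, a processing factor of small-subunit ribosomal RNA, gave 42.1% and 16.5% in R10 (adjusted p = 0.0133) but 16.4% and 39.4% in R9, the opposite direction. In the R1 library without an n number, the members of Fcf1 (42.3%), Gon4l (34.0%), Pdcd5 (24.04%) and Spc24 (21.5%) all lay far above the numbered stem cell libraries, which reached at most 13.7%, 15.2%, 5.02% and 6.24%. For Fcf1, Gon4l and Pdcd5 that library was inside the progenitor range. For Spc24 it lay below the progenitors (25.9% to 30.5%), and the R9 means for Spc24 were 23.9% and 16.9%. For Gon4l the R9 means were 47.1% in progenitors and 45.2% in stem cells. Those for Pdcd5 were 6.75% and 11.3%, the opposite direction to R10. With the unnumbered R1 library alone as the stem cell arm, only the progenitors gave a spread and the lone library was assumed to vary like them, so a lost call says little. The differences were then −30.6 points for Smg6, −19.1 for Oaz1, −18.7 for Krtcap2, −14.6 for Aaas, −6.77 for Spc24, −4.11 for Pdcd5, −3.67 for Gon4l and 0.249 for Fcf1 (limma, adjusted p between 0.0963 and 0.996 for the 7 members other than Smg6).

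**Figure D4:**
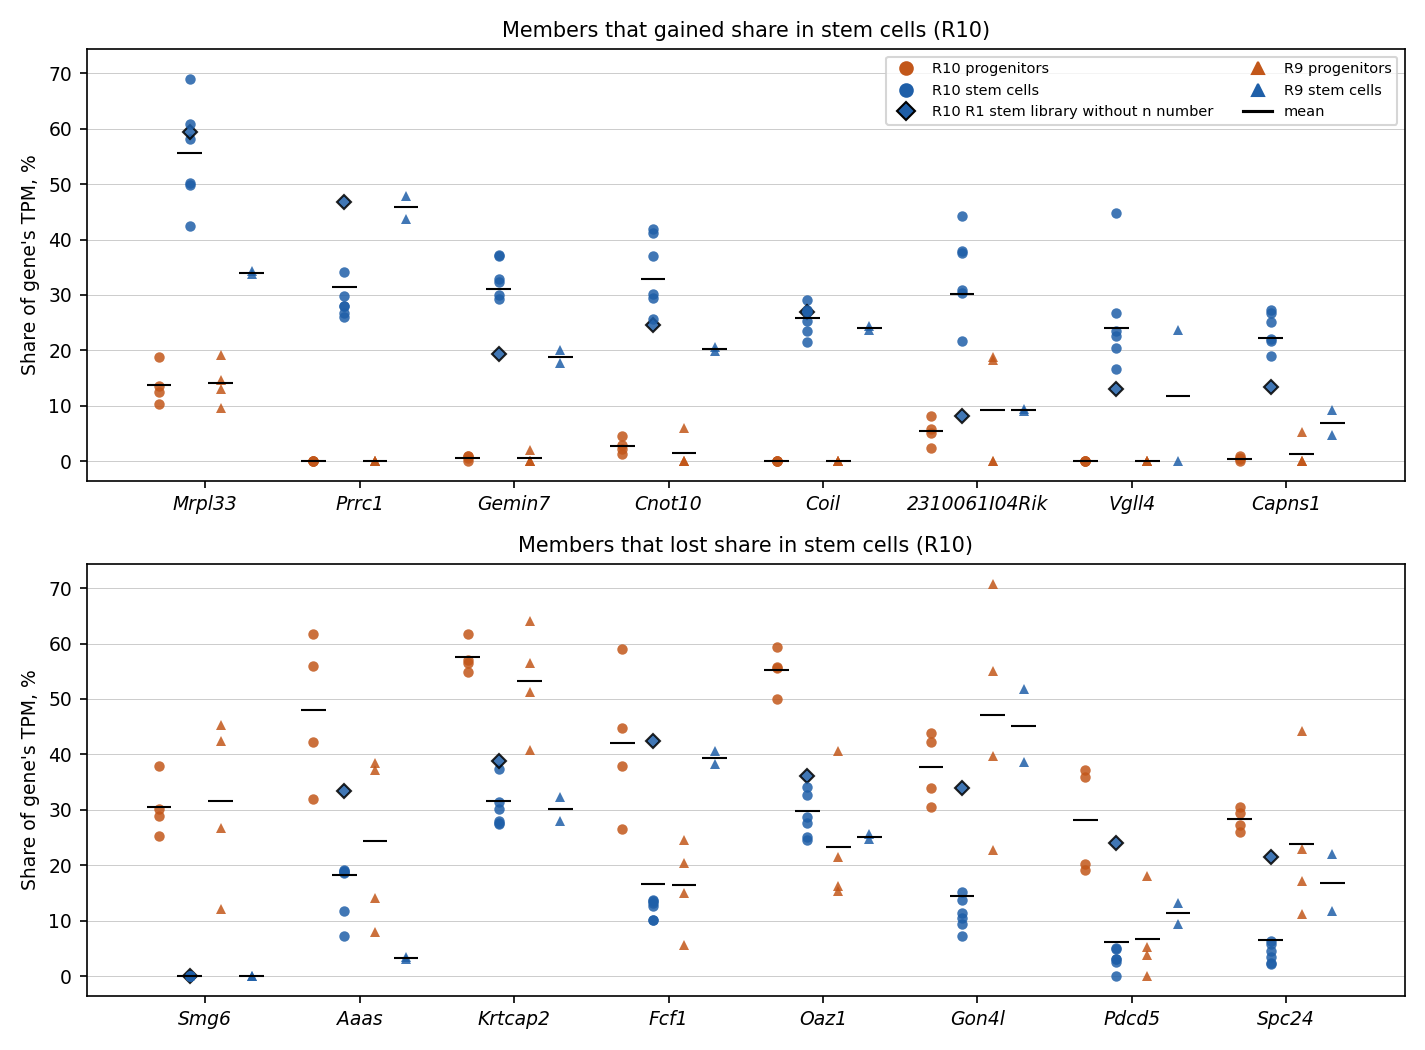
Share of the gene's TPM, in percent, of the 8 members that gained and the 8 that lost most share in R10 stem cells, 1 point per library (R10 circles, R9 triangles, black lines at the means), with the R1 stem cell library without an n number drawn as a diamond. The R10 groups of Mrpl33 (10.3% to 18.8% and 42.5% to 69.0%) and Smg6 (25.3% to 38.0% and 0) do not overlap, and the diamonds of Fcf1, Gon4l and Pdcd5 lie among the progenitors.

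The kinds of member gave the following usage calls. In R10, 34 of 435 coding members tested gained and 35 lost share, and 6 and 13 of 101 non-coding ones did, beside 14.0% and 12.6% of all transcripts tested. Of 32 predicted decay targets, 1 gained and 2 lost. New combinations of known introns gave 21 gains and 16 losses among 243 tested, new splice-site pairs 12 and 20 among 173, and retained introns 7 and 12 among 120. By kind, 9.38% to 18.8% of the members tested were called in either direction, below the 26.6% of all transcripts. These counts were not tested against each other.

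By level, 1728 of 5309 members tested were called in R10 (32.5%), 982 higher and 746 lower in stem cells, where a call required an adjusted p under 0.05 and a log2(TPM + 1) difference of at least 1. The background was 39.8% of all 58952 transcripts tested, 23.4% higher and 16.4% lower. Quantile normalization gave 733 higher and 918 lower members, and median centring 816 and 863, so the direction of the split depends on the scaling. The median difference was 0.14 for members and 0.17 for all transcripts, and 12.0% of the members passed the filter on level. The R9 comparison called 931 of 8362 members, with 728 higher and 203 lower, beside 13.4% of all transcripts (9.75% higher and 3.66% lower). The count was 2267 without the O4G or 2342 without the R1 stem cell library. Signs matched between the library kinds for 1033 of the 1192 members that were called in R10 and had an R9 test (86.7%), and for 14027 of 17301 such transcripts overall (81.1%). Both comparisons called 335 of the 3607 members tested in both, with the same sign, and 5116 of 42221 transcripts overall. Transcripts at 0 in 1 arm passed the filter through the other arm and could differ in 1 direction only. They are counted in these numbers, so the matching signs were partly fixed in advance.

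The largest differences in level were mostly in members of genes far more abundant in 1 of the cell types. Gm46332 gave its 2-exon member a mean of 795 TPM in R10 stem cells, 71.0% of the gene, with 438 TPM in the unnumbered R1 library, and 0 in progenitors, where the gene itself was at 3.02 TPM. Mylpf, a fast muscle myosin light chain, gave 139 and 0.170 TPM, with 195 in the unnumbered R1 library (3 of the 4 progenitor libraries were at 0). Members under 1 TPM in 1 arm passed the filter on level only through the other arm, so their values are given without a p. The 2-exon member of Slc7a3, a cationic amino acid transporter, was at 50.4 TPM in stem cells and listed at 0 in progenitors, as were the members of Prrc1 (118 TPM) and Coil (66.8 TPM). The unnumbered R1 library had 24.2, 90.2 and 112 TPM of these. In the other direction, the Hotairm1 member fell from 564 to 15.4 TPM, with 25.3 in the unnumbered R1 library (log2 difference −5.21, adjusted p = 4.27e-08) with its gene, at 677 and 20.4 TPM. The members of Emcn, the endothelial sialomucin endomucin (22.0 TPM), and of 3110082J24Rik (23.4 TPM) were listed at 0 in stem cells, where their genes were at 0.0647 and 0 TPM.

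The members of Idh2 and Tmem63b were listed at 0 in stem cells while their genes were above 0. The 2-exon, 528-base member of Idh2, the mitochondrial isocitrate dehydrogenase, was listed at 0 in all 9 stem cell libraries, where the gene averaged 91.6 TPM in R10. In R10 progenitors it held 19.9%, 14.8%, 20.7% and 26.5% of 177 TPM (a difference of −20.5 points). The 5-exon member of Tmem63b, a mechanosensitive cation channel, held 31.5% to 57.0% of the gene in R10 progenitors and 42.8% to 52.3% in R9 progenitors and was at 0 in all 9 stem cell libraries. Its gene was at 40.7 TPM in R10 progenitors and 6.48 TPM in stem cells, below the level at which usage was tested.

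Members of 2 gene lists gave 2 usage calls among 6 tested and 5 among 26, beside 26.6% of all transcripts tested (14.0% higher and 12.6% lower). With so few tested, nothing is read from these counts. Of 55 splicing regulators 50 had members, 933 in all, and 6 were tested for usage: Rbfox2 gained 11.2 points (0 in R10 progenitors, 8.74% to 16.0% in stem cells and 9.003% in the unnumbered R1 library), Hnrnpm lost 20.8, and 4 were not called. The Hnrnpm call did not hold in 4 of 17 alternatives, namely wild-type progenitors alone, no minimum share, the OKMS progenitor library left out, and the unnumbered R1 library alone, where the sign turned (3.49 points). Its R9 means went the other way (46.1% in progenitors and 60.8% in stem cells). In R9 stem cells the Rbfox2 member was listed at 0. By level, 14 of 115 members of this list were higher in R10 stem cells and 3 lower, beside the background of 23.4% and 16.4%. Of 106 ribosomal protein genes 80 had 773 members, 602 of them with a retained intron. Usage was tested for 26: Rpl27a gained 13.1 points, and Rpl22l1 (−21.2), Rps13 (−14.3), Rpl11 (−12.5) and Rpl7a (−12.1) lost share. Rpl27a held 7.14% to 12.3% in R10 progenitors and 18.3% to 24.98% in stem cells, with the unnumbered R1 library highest, and 5.19% to 10.8% against 28.8% and 37.0% in R9. As R9 means of progenitors and stem cells, Rpl7a (40.06% and 18.003%) and Rps13 (8.79% and 6.40%) had the same sign as in R10, and Rpl22l1 (51.2% and 61.4%) and Rpl11 (15.0% and 24.6%) the opposite one. For Rpl22l1 the unnumbered R1 library (59.0004%) lay at the lower end of the R10 progenitor range (58.98% to 72.4%), and with it alone as the stem cell arm the call was lost (limma adjusted p = 0.582). The Rpl11 call was lost in 13 of 17 alternatives, and with single libraries left out its difference ranged from −17.3 to −7.55 points. Leaving out the R10 library of OKMS progenitors lost the Rpl7a call. The member of Rps12, which retains a 124-base intron and has a predicted frame of 19 residues, was the dominant transcript in at least 1 arm, at 38.2% to 43.2% and 28.6% to 41.9% in R10 progenitors and stem cells.

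Few members of noncoding and cell-type genes could be tested. Of 29 noncoding RNA genes in the list 20 had 175 members, 4 were tested for usage, and a member of Snhg17, dominant in at least 1 arm, held 14.7% to 42.6% in R10 progenitors and 23.4% to 44.9% in stem cells. Pluripotency genes had 27 members in 11 of 17 genes, and 15 could be tested by level. These genes were nearly absent from progenitors, so their members passed the filter through the stem cells and their direction is no result. Neural markers had 85 members in 8 genes, mesenchymal genes 15 members and epithelial genes 14, with 1, 1 and 3 tested by level. With so few tested after the filter on level, no direction is given for them.

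The time course of the R9 libraries rests on 1 library per system and day, with OKMS and OKS as an additive term. By level, 5 of 17642 members were called as differing from day 0 at any day, beside 0.129% of all 138612 transcripts, 0.0447% higher and 0.0844% lower (limma, with 1413 members at an unadjusted p under 0.05). The members of Hnrnpm (−7.52 on the log2 scale at day 4), Hotairm1 (−4.92 at day 20) and Usp4, a deubiquitinase gene (−4.90 at day 20), fell. Those of Gdpd3 (4.11 at day 10) and Skp1a, a subunit of SCF ubiquitin ligases (3.97 at day 6), rose. These 5 were named after their values were seen, and the limma adjusted p of Hotairm1 was 0.0110. The Hnrnpm member was at 0 on every later day and the Skp1a member at 0 in all R9 progenitors. Both passed the filter on level only through the days where they were above 0 and had to differ, so no p is given for them. By usage 1 of 800 was called, beside 0.329% of 14000 transcripts (0.0929% higher and 0.236% lower): the member of Hnrnpm, whose largest difference from day 0 was −54.5 points. Without day 20 the call was lost. This member was at 0 on every later day and passed the filter only through day 0, so no p is given.

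Hnrnpm, a splicing regulator, separated cells with induced factors from all others. Its 4-exon, 770-base member (chr17:33646236-33685392), with the junction printed above, held 62.4% of the gene in OKMS progenitors and 46.5% in OKS progenitors of R9. It was listed at 0 at all 6 days in both systems and in the 3 R9 libraries in 2i-LIF. In R10 all 10 libraries of induced cells were at 0 as well. All 20 other libraries were above 0, with 10.3 to 286 TPM: progenitors of each genotype, stem cells, and wild-type cells held in FBS-LIF with doxycycline (53.5% in R9, 19.3% and 25.9% in R10). The gene as a whole was expressed throughout, at 40.0 to 265 TPM in the 25 induced libraries and 39.7 to 441 TPM in the other 20. Within R10 the stem cells held 8.15% to 12.1% with n numbers and 38.0% without, beside 22.4% to 43.5% in progenitors. The same split of the libraries, above 0 in all 20 with a mean of at least 1 TPM and 0 in all 25, occurred in 19 transcripts of the table, 2 of them members, and the reverse split in none.

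The Idh2 member differed between the systems early in the course, in both kinds of library. In R9 OKS cells it held 40.6% at day 0, then 29.7%, 36.5%, 31.6% and 16.1% at days 2, 4, 6 and 10, and 0 at days 14 and 20. In R9 OKMS cells it held 31.5% at day 0 and was listed at 0 from day 2 on. In R10, OKS cells gave 27.1% at day 2 and 29.8% at day 6 and were at 0 at day 18 in FBS-LIF and in 2i-LIF, and every induced OKMS library was at 0, as were the 3 wild-type libraries in FBS-LIF with doxycycline, counted over R9 and R10. The gene itself was at 183 TPM in OKMS and 196 TPM in OKS cells of R9 at day 2. The difference between the systems was not tested, with 1 library each.

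Other members are given as a description, without a call. Some ended near the stem cell value and some, such as Slc7a3, did not. Mrpl33 went from 9.55% and 14.6% at day 0 to 50.3% and 49.1% at day 20 in OKMS and OKS cells, above both R9 stem cell libraries, and at day 2 the systems were at 38.0% and 5.91% in R9 and at 23.2% and 13.4% in R10. Wild-type cells in FBS-LIF with doxycycline were at 25.2% in R9 and at 10.01% and 22.8% in R10. Smg6 went from 42.4% and 26.6% to between 0 and 14.3% at every later day. The wild-type libraries in FBS-LIF with doxycycline, without inducible factors, were low too, at 5.96% in R9 and at 0 and 1.49% in R10. Prrc1 was at 28.7% in OKS cells first at day 20, and in OKMS cells at 46.4% at day 4, 0 at day 6 and 20.9% to 36.3% from day 10. Coil appeared in OKMS cells from day 10 (6.59%, 20.97% and 16.2%) and in OKS cells only in 2i-LIF (23.5%). The Slc7a3 member was high early only: it held 78.0% and 84.6% in OKMS cells at days 4 and 6 and was listed at 0 from day 10 to day 20, while the gene was at 54.1 TPM at day 20. In OKS cells it held 93.7%, 87.8% and 80.2% at days 4, 6 and 10 and was listed at 0 afterwards. The R9 stem cell libraries were at 87.2% and 86.7%. The Tmem63b member was listed at 0 in all induced libraries except R9 OKS cells at day 14 (20.96%) and day 20 (63.7%).

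**Figure D5:**
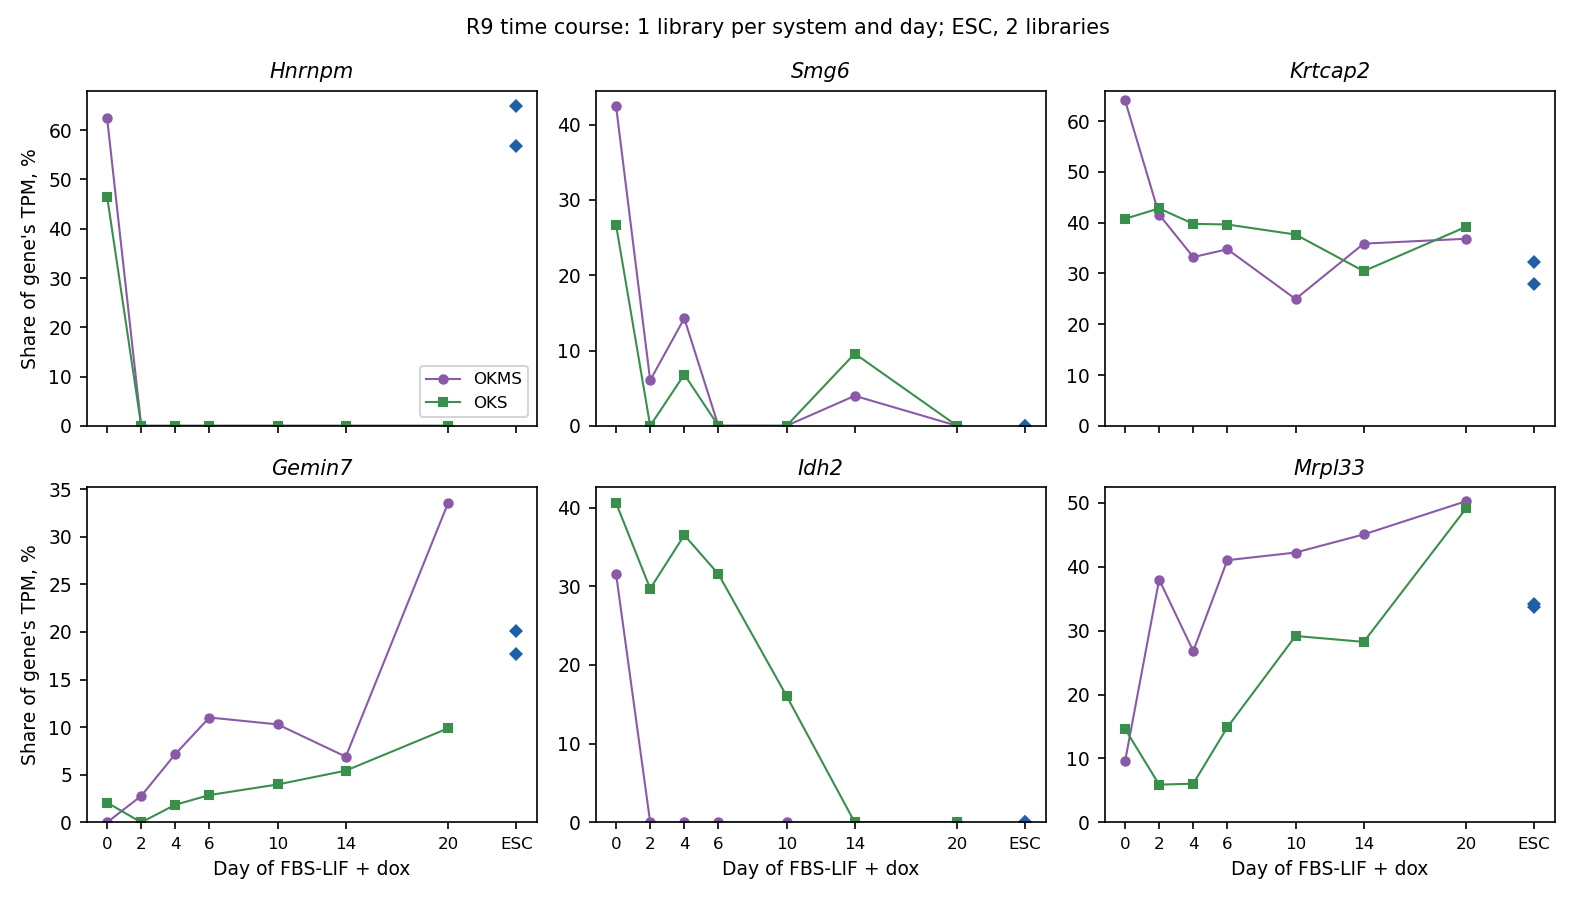
Share of the gene's TPM, in percent, against day in FBS-LIF with doxycycline for 6 members in R9, with OKMS and OKS as separate lines of 1 library per day and the 2 stem cell libraries at the right. Hnrnpm is at 0 at every induced day and at 56.8% and 64.8% in stem cells, and Idh2 stays above 0 in OKS cells up to day 10 only.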

How the data were processed

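Long-read cDNA libraries of mouse cells were analysed from the tables that the authors deposited: a gene table in CPM and a transcript table in TPM. Reads were aligned with minimap2 2.24-r1122 to mm10, per the submitters' processing notes. The authors' classification table gave structural category, coding status and, per the file headers, how many percent of the bases downstream of a transcript are A. How TPM was estimated across libraries is not given in the sources used here. TPM values keep no depth, so it was read from the CPM steps. Within a small tolerance, all CPM values were whole multiples of 1 read in each library (100%). These reads served for depth and markers only. Of the columns with gene values, 13 matched no sample and were not used.

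Level was tested with limma 3.58.1 (R 4.3.3) on log2(TPM + 1) for transcripts of at least 1 TPM, a scale on which differences of low transcripts are understated. Usage, the percent of the gene's TPM, was tested with limma for transcripts of at least 5% in genes of at least 20 mean TPM per arm and 5 TPM in every library. For the days, a moderated F test in limma compared all of them with day 0, with system as an additive term. P-values were Benjamini-Hochberg adjusted over all transcripts tested. Library measures were compared with two-sided exact permutation tests (scipy 1.17.1). Nothing in the labels says that replicates were separate cultures, so p-values measure only the spread between these samples, which may be technical. Other tools were Python 3.11.15, pandas 2.3.3, numpy 2.4.6 and matplotlib 3.10.9. The limma fits, but not the permutation tests, were tried on simulated data with large planted differences. Smaller differences were not tried.

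Members and gene lists were chosen with earlier results of these data known. Named members were the 8 largest gains and 8 largest losses of share called in R10, the 5 dominant members of highest TPM per R10 arm, the 5 largest rises and 5 largest falls in level, the members called for usage in the time course, and members of the gene lists that were dominant or called for usage. Alternatives covered pseudocount, filters, scaling, members counted, single libraries, days, the R1 library without an n number as the stem cell arm, and wild-type progenitors alone. Protein sequences were not used here.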

Additional observations from a re-analysis of the deposited data

Results flagged for a closer look

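In 16 of 93 groups of 4 to 10 libraries, 1 library lay far from the rest, by a rule that flags about 1 in 20 independent groups of normal spread. The groups here reuse the same libraries, and most hold members named for their R10 values. The 16 can therefore not be set against that rate. The gap to the nearest other library was large against the range of its group in each case. Of the 16, 12 concern the R1 stem cell library without an n number in R10.

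That library had the highest percent of genes with a dominant member, 2.59, the next at 2.15. It had the highest share of the gene's TPM among R10 stem cells for the members of Prrc1 (46.8%, next 34.2%), Fcf1 (42.3%, next 13.7%), Gon4l (34.0%, next 15.2%), Pdcd5 (24.04%, next 5.02%) and Spc24 (21.5%, next 6.24%). The same held for Cct8 (77.8%, next 57.6%), Hnrnpm (38.0%, next 12.1%) and the 3-exon member of Rpl3 with a retained intron (42.8%, next 6.85%). It had the lowest share for Esd (68.4%, next 72.7%), Slc7a3 (52.7%, next 76.9%) and the 10-exon member of Rpl3 (14.9%, next 31.2%).

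The other 4 concern single libraries elsewhere. Members with a retained intron took 0.979% of TPM in the wild-type R10 progenitor library numbered 2, the next at 0.658%. The Vgll4 member held 44.8% in the second R1-Clone3 library (next 26.8%), the Mrpl20 member 79.9% in OKMS progenitors (next 82.6%), and the Mylpf member 11.8% in the wild-type progenitor library numbered 3, with 0 in the other progenitors. The causes were not tested.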

How the results depend on the processing

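No paired analysis was possible because the stem cell and progenitor libraries share only 1 replicate number. With the R1 library without an n number alone as the R10 stem cell arm, which leaves the spread to the progenitors, the difference in member percent of TPM was −0.0033 points (exact permutation p = 1), that in coding percent −0.868, and that in genes with a dominant member 0.0610, the last 2 reversed. There 1081 members were called by level and 8 by usage, and the usage differences of Cct8 (1.56 points), Fcf1 (0.249) and Hnrnpm (3.49) were reversed. Wild-type progenitors alone gave −0.292 for member percent and −0.519 for dominant genes in R10, neither past the threshold. Member percent differed by −0.0915 when incomplete splice matches were left out of the total. Without members that retain an intron, the R10 coding percent differed by 2.37 points and passed the test unadjusted, and the late minus early differences turned to 0.00477 (member percent) and 0.0356 (dominant genes). A gene minimum of 50 TPM turned the differences in dominant genes to −0.0175 (R9) and 0.0184 (late minus early).

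Counts of calls moved with the filters. By level, a minimum of 5 TPM gave 483 in R10, 251 in R9 and 11 in the time course, and median centring gave 208 in R9. R10 usage gave 153 and 34 calls at gene minimums of 10 and 50 TPM and 52 without a minimum share. R9 usage gave 7, 2 and 13 under the same settings and 14 on the arcsine scale. The time course by level gave 3 with a pseudocount of 0.25, 313 without the system term, 2 without day 2, 4 or 6, 3 without day 10 or 14 and 1 without day 20. By usage it gave 2 on the arcsine scale, 15 without a minimum share, 2 without the system term, 2 without day 14 and 0 without day 20 (limma, with 52 members at an unadjusted p under 0.05). Genes with a dominant member numbered 149 and 38 (R10 stem cells), 199 and 53 (R10 progenitors), 224 and 62 (R9 stem cells) and 213 and 66 (R9 progenitors) at gene minimums of 10 and 50 TPM.

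Leaving out each library in turn gave differences in member percent of −0.294 to −0.175 (R10), −0.181 to −0.0737 (R9) and −0.0861 to 0.0652 (late minus early). Coding percent ranged over 0.897 to 1.86, 2.04 to 3.87 and 0.0612 to 1.16, and dominant genes over −0.529 to −0.413, 0.0372 to 0.309 and −0.0680 to 0.0585. Level calls ranged over 1627 to 1777 (R10) and 1031 to 2342 (R9), and usage calls over 78 to 104 and 0 to 4. For single named members, 195 values under other settings kept direction and call, 28 lost the call and 3 reversed, and 392 and 12 did so with 1 library left out. The cause was not tested. No read support per transcript was used here, which limits what a value of 0 shows.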
